A study of Homo sapiens with 72 samples.

Results

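The 5 NF-kB subunit genes and 5 genes that restrain or answer the pathway were followed through the peaks of 3 histone marks in 3 human B cell lines. They were NFKB1, NFKB2, REL, RELA and RELB, which encode the subunits, NFKBIA, NFKBIE and NFKBIZ, which encode inhibitor-type proteins, and TNFAIP3 and BIRC3, which encode ubiquitin enzymes. The 10 genes were taken by name from a list, out of 20033 protein-coding genes of the GENCODE annotation of hg38, and not by a cut on measured values. Earlier results of these data were known when the genes were chosen. Each was examined within 1 kb of its annotated starts and over its body with 3 kb on either side, here called its window.

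NF-kB subunits pair up and are held in the cytoplasm by inhibitor proteins until a signal releases them, after which the pairs enter the nucleus and bind short DNA sites. In B cells the signal comes from the antigen receptor, CD40, the BAFF receptor or Toll-like receptors, and protein kinase C, which bryostatin binds, lies on the path from the antigen receptor. Several of the genes switched on by NF-kB encode its own inhibitors and subunits, so that the response limits itself.

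The lines were Raji, from a Burkitt lymphoma and positive for Epstein-Barr virus, and NALM6 and REH, both from acute lymphocytic leukemia. Cells of each line were left untreated or received 1 nM bryostatin overnight, as the labels give it (the study's text gives a full day), and H3K4me2, H3K4me3 and H3K27me3 were mapped by Cut&Tag, in which an antibody-tethered transposase cuts and tags the DNA beside a marked nucleosome. There were 3 libraries for each line, treatment and mark, 54 in all. Each tumour class was represented by 1 or 2 lines, so line and tumour class cannot be told apart, and nothing in the labels says that replicates were separate cultures, so p-values measure the spread between these libraries, which may be technical.

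H3K4me3 marks the starts of active or poised genes, H3K4me2 covers starts and enhancers, and H3K27me3 is the mark of Polycomb repression. In the 48 libraries whose values moved in steps of single reads, the depth recovered was 5.12 to 47.9 M reads, and the H3K4me2 and H3K4me3 libraries among them held 4389 to 22540 peaks. The other 6, replicate 1 of NALM6 in every mark and treatment, had a different scaling. Their median H3K4me2 or H3K4me3 peak was 672 to 916 bp long, against 1710 to 3210 bp in the other NALM6 libraries. The untreated Raji H3K27me3 library of replicate 2 stood apart, with a peak at 57.0% of gene starts, of which 81.1% also had H3K4me3, against 13.1 to 31.3% in the other 17 H3K27me3 libraries. Of 5 general B cell marker genes, 5, 3 and 3 had an H3K4me3 start peak in at least 4 of 6 libraries of Raji, NALM6 and REH, and 0 of 4 T cell and 0 of 4 myeloid markers did in any line. Of 5 precursor B cell markers 1, 5 and 4 did, and of 4 germinal centre markers 4, 1 and 2 did.

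Stretches of promoter that match the NF-kB site are shown first, because the peaks described next cover some of them in every line and others in only some lines. Sequences are from RefSeq on GRCh38.p14, 5′ to 3′ on the strand of the gene, with the match in capitals. The patterns were chosen after the promoters had been searched.
NFKB1, plus strand, chr4:102501301-102501328: gacgtcagtGGGAATTTCCagccaggaa
NFKB2, plus strand, chr10:102395675-102395702: ggtattttcGGGACTTTCCtaagctgct
REL, plus strand, chr2:60881518-60881546: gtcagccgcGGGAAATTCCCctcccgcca
NFKBIA, minus strand, chr14:35404812-35404839: gactggcttGGAAATTCCCcgagcctga
NFKBIZ, upstream start, plus strand, chr3:101827758-101827785: ttttggtctGGGAATTTCCagtgtgcag
NFKBIZ, principal start, plus strand, chr3:101849266-101849293: cgcgctgtcGGGGTTTCCCggtgaaggg
TNFAIP3, plus strand, chr6:137867183-137867210: cgtgactttGGAAAGTCCCgtggaaatc
BIRC3, distal, plus strand, chr11:102317276-102317303: ttgggtcatGGAAATCCCCgagtgggtt
BIRC3, proximal, plus strand, chr11:102317340-102317367: attaccgctGGAGTTCCCCtaagtccta

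The letters GGGA and TTCC, set apart by any 2 bases and read on either strand, stood in the 250 bases before the start of 289 of 21613 promoters (1.34%), and in 6 of 13 promoters of these genes. Those promoters belonged to 6 of the 8 genes present in the promoter table, against 277 of 15345 genes (1.81%). The matches began 49 bases before the start in NFKB1, 21 in NFKB2, 47 in REL, 81 in NFKBIA, 67 in TNFAIP3 and 223 before the upstream start of NFKBIZ. In REL the capitals hold overlapping matches on both strands. The looser NF-kB consensus was found in 5.83% of promoters and 7.56% of genes, and in 9 of these 13 promoters and 7 of the 8 genes. The promoters of BIRC3 and of the principal start of NFKBIZ matched only this looser form, at 199 and 135 bases and at 239 bases. So did that of another NFKB2 start, at -1127 bases from the principal one, with 4 matches that partly overlap and are not shown. RELA had no match, and RELB and NFKBIE were not in the promoter table. A match is a string of letters and no measure of binding. Because the patterns were chosen after the promoters had been searched, these shares are descriptions and test nothing.

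The starts of these genes nearly always carried the marks of active or poised starts. Over 10 genes and 18 libraries, an H3K4me2 peak lay within 1 kb of a start in 173 of 180 pairs of gene and library, and an H3K4me3 peak in 160 of 180. In Raji both marks were present in 60 of 60 pairs, where 53.3% and 52.6% of all pairs of protein-coding gene and library had H3K4me2 and H3K4me3. In REH the counts were 60 of 60 and 52 of 60, against 56.5% and 49.3% over all genes. In NALM6 they were 53 of 60 and 48 of 60, against 41.6% and 43.1%. The H3K4me3 start peak was found in each of the 18 libraries at 7 genes, NFKB1, REL, RELA, NFKBIA, NFKBIE, NFKBIZ and TNFAIP3. BIRC3 lacked it in every NALM6 and REH library. NFKB2 and RELB lacked it in NALM6 replicate 1 of both treatments and in bryostatin replicate 3, which had only 4389 peaks. RELB also lacked it in REH untreated replicate 2 and bryostatin replicate 1, the REH libraries with fewest H3K4me3 peaks (7509 and 7528).

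**Figure D1:**
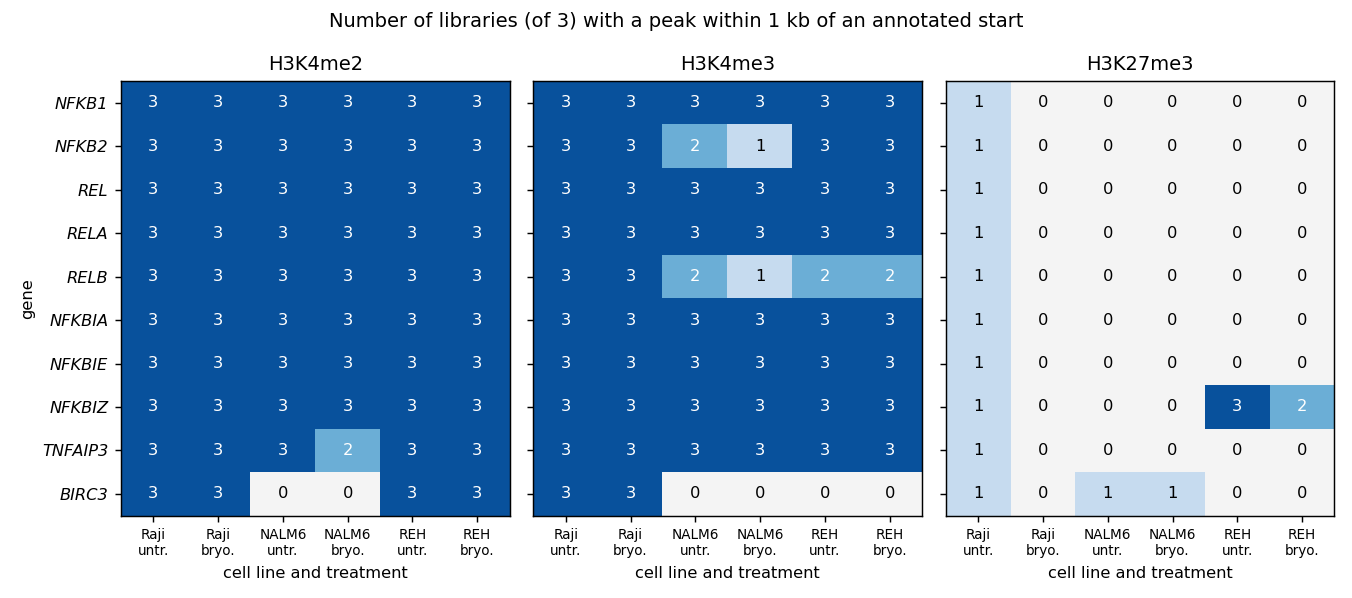
Number of libraries, out of 3, whose peaks came within 1 kb of any start of the gene (rows), by mark (panels) and by line and treatment (columns). BIRC3 had H3K4me3 in 6 libraries of Raji and 0 of the leukemia lines, and H3K27me3 reached NFKBIZ in 5 of 6 REH libraries.

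H3K27me3 was rare at these starts, in 17 of 180 pairs of gene and library. The libraries of this mark held 590 to 101702 peaks. Few were called in NALM6 replicate 1 (1444 untreated, 590 with bryostatin). The same held for Raji untreated replicate 1 (819) and bryostatin replicates 1 and 2 (3424 and 2778). A missing peak in such a library says little. Of these, 10 came from the untreated Raji library of replicate 2, in which all 10 genes had an H3K27me3 start peak, while no other Raji library had any. Without that library the count was 7. The pairs by line (Raji, NALM6, REH) were 10, 2 and 5 of 60, against 20.0%, 11.9% and 14.3% over all genes. The Raji share over all genes also includes the untreated library of replicate 2, at 57.0%. In the other Raji libraries it was 1.39% and 27.4% untreated and 3.66%, 2.76% and 28.1% with bryostatin, with 0 members in each. The 7 pairs belonged to NFKBIZ in REH and BIRC3 in NALM6.

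BIRC3 (chr11:102317484-102339403, plus strand) encodes an E3 ubiquitin ligase of the inhibitor of apoptosis family that acts in TNF receptor signalling and in the non-canonical NF-kB pathway. Its start was marked differently in each line. In Raji its start had H3K4me2 and H3K4me3 in 6 of 6 libraries. In REH it had H3K4me2 in 6 of 6 and H3K4me3 in 0 of 6. In NALM6 it had neither mark in any of 6 libraries, and H3K27me3 in replicate 2 of each treatment, over 4740 bp and 9350 bp of its window.

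A window level is the summed peak signal of the window divided by the median, in the same library, of windows with a peak in all 18 libraries of the mark (4357 windows for H3K4me2 and 4860 for H3K4me3). Being taken over whole cultures, it cannot tell a smaller share of marked cells from less mark per cell. For H3K4me3 the BIRC3 level was 1.28, 1.30 and 1.20 in untreated Raji and 1.53, 1.28 and 1.14 with bryostatin, and no peak was called in the other lines. For H3K4me2 it was 0.605, 0.290 and 1.03 in untreated Raji, and 0.317, 0.264 and 0.264 in untreated REH. The lowest untreated Raji library thus lay inside the REH range, while the bryostatin Raji libraries, at 1.41, 0.954 and 0.999, were all above the bryostatin REH libraries, at 0.283, 0.255 and 0.280. The REH start peak was short, 1550 bp on average, and only 0.649% of the merged H3K4me2 regions of the genome called in all 6 REH libraries were shorter, and 2.72% held less signal. Both NF-kB matches shown for BIRC3 lay under H3K4me2 peaks in 6 Raji and 6 REH libraries, and under H3K4me3 peaks in 6 Raji libraries only, with 0 in REH and NALM6. Over all genes, H3K4me3 in 6 of 6 Raji and 0 of 6 REH libraries was seen at 335 starts (1.67%), and the whole BIRC3 pattern, with H3K4me2 also in all of REH and neither mark in NALM6, at 13 (0.0649%). This pattern was read from the values, so the counts describe it and test nothing.

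NFKBIZ (chr3:101827991-101861022, plus strand) encodes a nuclear inhibitor-type protein that works with NF-kB at secondary response genes. It has an annotated start 21.5 kb upstream of the principal one. Raji had H3K4me3 peaks within 1 kb of it in 6 of 6 libraries, which merged to chr3:101827121-101832400. Its H3K4me2 peaks came within 1 kb in 5 of 6 libraries, and in the other, untreated replicate 2, the nearest peak began just beyond 1 kb. The H3K4me2 peaks merged to chr3:101825981-101838920 and were broken in most libraries. NALM6 had each mark there in 1 untreated and 1 bryostatin library, and REH in none. The GGGA-TTCC match before this upstream start lay under H3K4me3 peaks in 6 Raji, 2 NALM6 and 0 REH libraries, and under H3K4me2 peaks in 4, 2 and 0.

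At the principal NFKBIZ start H3K4me3 was present in all 18 libraries. The region at this start held more signal than 80.3%, 62.6% and 5.91% of merged regions called in all libraries of Raji, NALM6 and REH. The window level sums this start and the upstream one. In untreated Raji the mean called length was 4713 bp at the upstream region and 3303 bp at the principal one. In untreated REH it was 1947 bp, at the principal one only. The NFKBIZ window level of H3K4me3 was 2.20, 1.55 and 1.45 in untreated Raji, 1.46, 0.734 and 0.730 in untreated NALM6, while it was 0.321, 0.320 and 0.310 in untreated REH. All Raji values were above all REH values, and the NALM6 values lay between, with replicate 1 within the Raji range. With bryostatin the values were 1.74, 1.6 and 1.45 in Raji and 1.92, 1.01 and 0.956 in NALM6, while REH had 0.403, 0.342 and 0.306. REH also had H3K27me3 at the NFKBIZ start, over 1700, 1550 and 1290 bp in the untreated libraries and over 0, 1360 and 1680 bp with bryostatin. Together with H3K4me3 in 6 of 6 libraries, H3K27me3 in at least 5 of 6 REH libraries was found at 250 genes (1.25%).

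**Figure D2:**
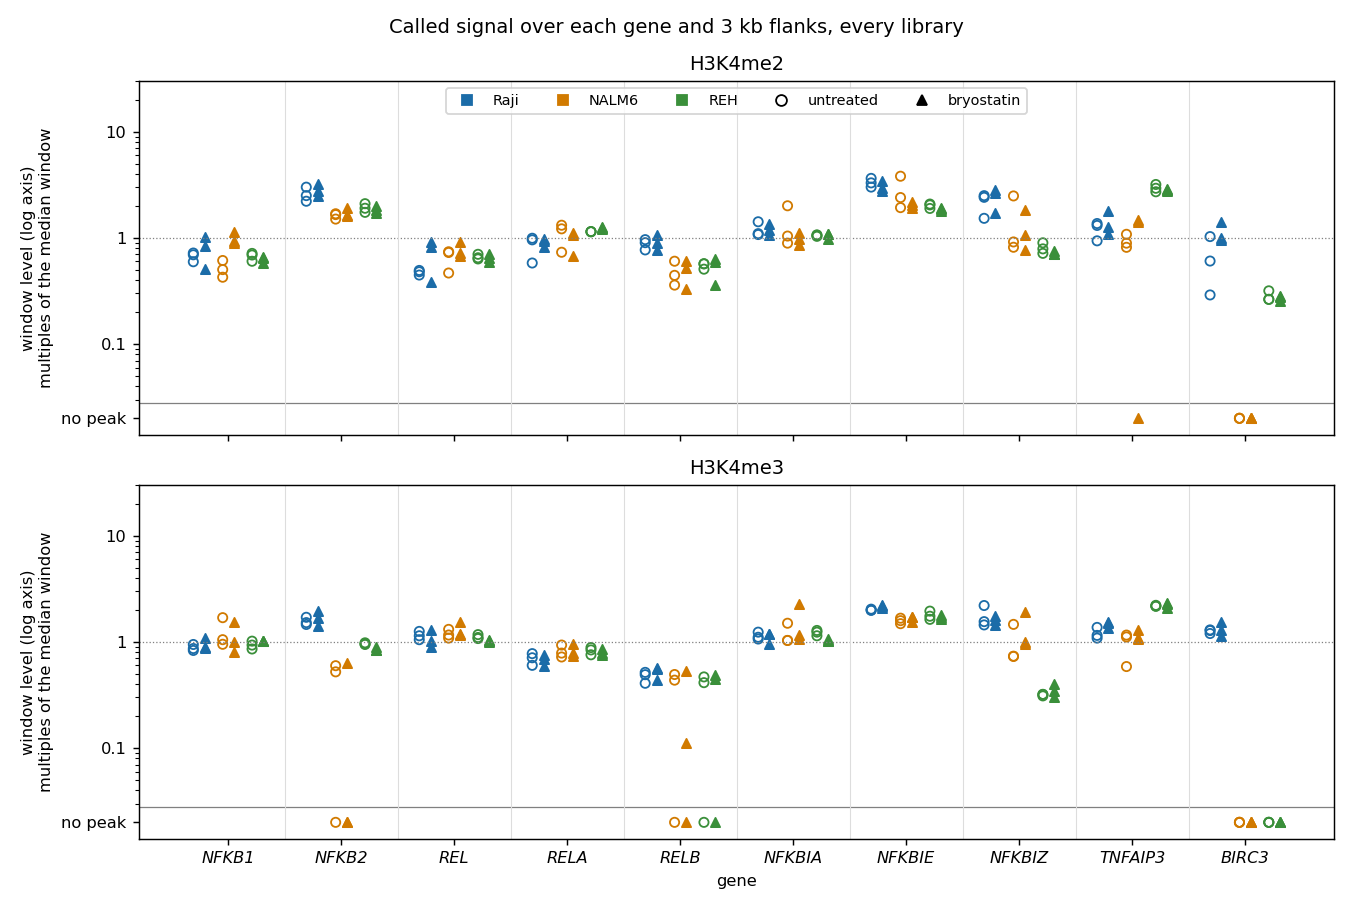
Window level of H3K4me2 and H3K4me3 for each gene in every library, with colours for lines, open circles for untreated and filled triangles for bryostatin libraries, on a log axis. Level 1 is the median window called in all 18 libraries of the mark, and libraries without a peak are drawn below the line; NFKBIZ H3K4me3 was 0.310 to 0.321 in untreated REH and 1.45 to 2.20 in untreated Raji.

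TNFAIP3 (chr6:137867214-137883314, plus strand) encodes a ubiquitin-editing enzyme that shuts down NF-kB signalling and is lost in many B cell lymphomas. In REH both the start and the inner part of the gene were marked. Each REH library had H3K4me2 peaks both at the start and farther in, and merged over the 6 libraries they ran over chr6:137865901-137883130, from 1.4 kb before to 15.9 kb after the principal start. The mean length called in this region was above that of 99.6% of the merged H3K4me2 regions of the genome called in all REH libraries. REH also had a separate H3K4me3 region inside the gene, chr6:137877531-137882420, in 6 of 6 libraries. Raji had peaks at the start and none in that inner part, and NALM6 had H3K4me2 there in 1 untreated and 2 bryostatin libraries. No annotated start of TNFAIP3 lies in the inner part.

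The TNFAIP3 window level of H3K4me2 was 2.93, 3.18 and 2.72 in untreated REH, 1.31, 0.938 and 1.37 in untreated Raji, and 0.815, 1.08 and 0.892 in untreated NALM6. REH was above both other lines without overlap, while Raji and NALM6 overlapped. For H3K4me3 the untreated values were 2.18, 2.21 and 2.17 in REH, 1.15, 1.37 and 1.09 in Raji, and 0.586, 1.16 and 1.11 in NALM6, in the same order.

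**Figure D3:**
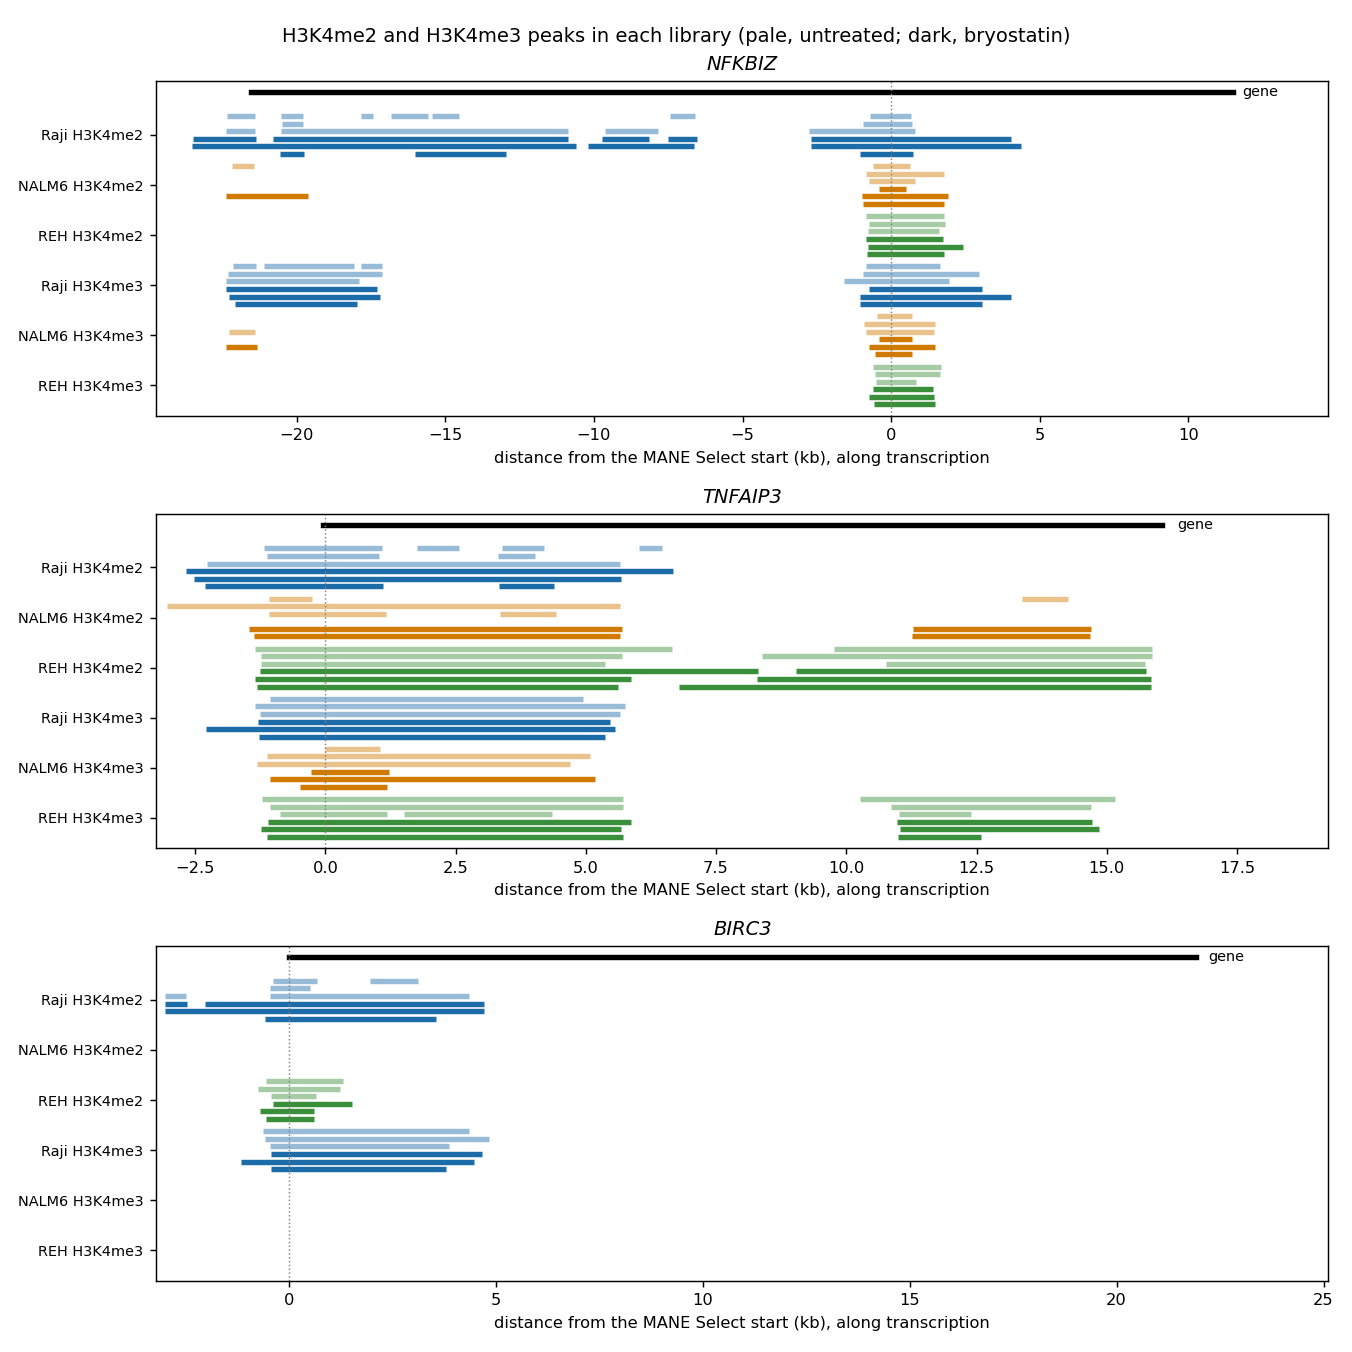
Called H3K4me2 and H3K4me3 peaks of NFKBIZ, TNFAIP3 and BIRC3 by distance from the principal start (kb, along transcription), with 1 row for each library (pale, untreated; dark, bryostatin) and the gene as a black bar. Raji had peaks within 1 kb of the upstream NFKBIZ start in 6 of 6 H3K4me3 and 5 of 6 H3K4me2 libraries, REH had peaks in the inner part of TNFAIP3 in 6 of 6, and NALM6 had none at BIRC3.

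NFKBIE (chr6:44258166-44265788, minus strand) and NFKBIA (chr14:35401079-35404749, minus strand) encode cytoplasmic inhibitors that NF-kB induces. In Raji the mean called length of the NFKBIE start region was above that of 98.8% of merged regions for H3K4me2 and 99.6% for H3K4me3, but the region also takes in the start of the neighbouring gene SLC35B2. A single peak covered both starts in 4 of 6 Raji libraries for H3K4me2 and 1 of 6 for H3K4me3, and in none of NALM6 and REH. Its H3K4me2 window level was 3.30, 3.63 and 3.01 in untreated Raji and 1.89, 2.08 and 2.04 in untreated REH, with no overlap. In untreated NALM6 it was 3.81, 1.93 and 2.40. In REH an H3K27me3 domain with peaks in 6 of 6 libraries, merged to chr6:44267171-44294780, ended 1.6 kb before the NFKBIE start, outside the 1 kb zone. NFKBIA was evenly marked, with H3K4me2 window levels of 0.860 to 2.01 and H3K4me3 levels of 0.949 to 2.26 over the 18 libraries of each mark.

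Among the subunits, NFKB2 (chr10:102394110-102402524, plus strand), the precursor of the non-canonical subunit, had a start region in Raji whose mean called length was above that of 96.3% of merged regions for H3K4me2 and 98.9% for H3K4me3. Its H3K4me3 window level was 1.46, 1.71 and 1.52 in untreated Raji and 0.957, 0.981 and 0.946 in untreated REH, with no overlap. In untreated NALM6 it was 0, 0.523 and 0.597, where 0 means that no peak was called. RELB (chr19:45001461-45038192, plus strand), the partner of NFKB2 in the non-canonical pathway, has the start of CLASRP within the 3 kb after its end, and all lines had peaks there. The H3K4me2 level of the RELB window was 0.902, 0.770 and 0.963 in untreated Raji, 0.572, 0.569 and 0.508 in REH, and 0.444, 0.359 and 0.603 in NALM6, so that Raji was above both leukemia lines without overlap. Without the flanks the RELB difference between Raji and REH was 0.78 (adjusted p = 0.026 in limma).

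NFKB1 (chr4:102501330-102617302, plus strand), the precursor of the classical DNA-binding subunit, RELA (chr11:65653599-65663090, minus strand), the classical transactivating subunit, and REL (chr2:60881491-60931612, plus strand), the subunit most used by B cells, had H3K4me3 window levels of 0.803 to 1.69, 0.590 to 0.952 and 0.901 to 1.55 over the 18 libraries. For REL the H3K4me2 level was 0.494, 0.447 and 0.480 in untreated Raji and 0.633, 0.650 and 0.701 in untreated REH, with Raji lower in every library. Inside NFKB1 and at 3.1 to 10.7 kb after the REL start, Raji had H3K4me2 peaks in bryostatin replicates 1 and 2 only. The treated Raji H3K4me2 libraries were the deeper ones, at 15.6 to 18.8 M reads against 6.70 to 13.9 M untreated, and the part of depth in these peaks was not tested.

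The untreated lines were then compared over all windows that had a peak in every library of the fit, with limma on the log2 summed signal and Benjamini-Hochberg adjustment over all those windows. Between Raji and REH, H3K4me2 differed at 6 of 10 members, where 46% of all windows did, so that the share was near that of the genome. NFKBIZ, over a window with both of its starts, was higher in Raji by 1.39 on the log2 scale (SE 0.19, adjusted p = 0.00030). NFKBIE was higher by 0.72 (adjusted p = 0.00043), RELB by 0.67 (adjusted p = 0.0026) and NFKB2 by 0.42 (adjusted p = 0.027). The NFKBIE window also holds the start of SLC35B2. TNFAIP3 was lower in Raji, at -1.31 (adjusted p = 0.00011), and REL at -0.48 (adjusted p = 0.010). Members higher in Raji were 4 of 10 against 28% of windows, and members lower were 2 of 10 against 18%. The median difference was 0.30 over the members and 0.11 over all windows. The untreated H3K4me2 libraries had 6.70 to 13.9 M reads in Raji and 13.7 to 18.8 M in REH. For H3K4me3 they had 20.1 to 47.9 M and 10.2 to 27.9 M. The part of depth in the line differences was not tested.

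BIRC3, at 1.01 (adjusted p = 0.052), and RELA, at -0.48 (adjusted p = 0.070), did not pass the threshold. The NFKB2 difference passed in only 2 of the 6 fits that left out 1 library, and measured as signal per called base none of the 6 differences passed. Without centring on the shared windows, the windows higher and lower in Raji were 650 and 2267 in place of 2540 and 1637, and NFKB2, RELB and NFKBIE no longer passed.

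H3K4me3 separated Raji and REH at 3 of 8 members tested, against 46.6% of windows. Over a window that holds both of its starts, NFKBIZ was 5.37-fold higher in Raji (log2 difference 2.43, adjusted p = 4.8e-06). NFKB2 was higher by 0.70 (adjusted p = 0.00014). TNFAIP3 was lower, at -0.87 (adjusted p = 9.1e-05). NFKBIE, at 0.18 (adjusted p = 0.097), did not pass. Without flanks, a setting chosen after seeing the data, its difference was 0.74 (adjusted p = 0.00014). The NFKBIE window holds the start of the neighbouring gene SLC35B2, whose part in this was not tested. BIRC3 and RELB had libraries without a peak and could not be fitted. Of the differences that passed, only that of NFKBIZ passed as signal per called base, at 0.60 (adjusted p = 0.043).

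**Figure D4:**
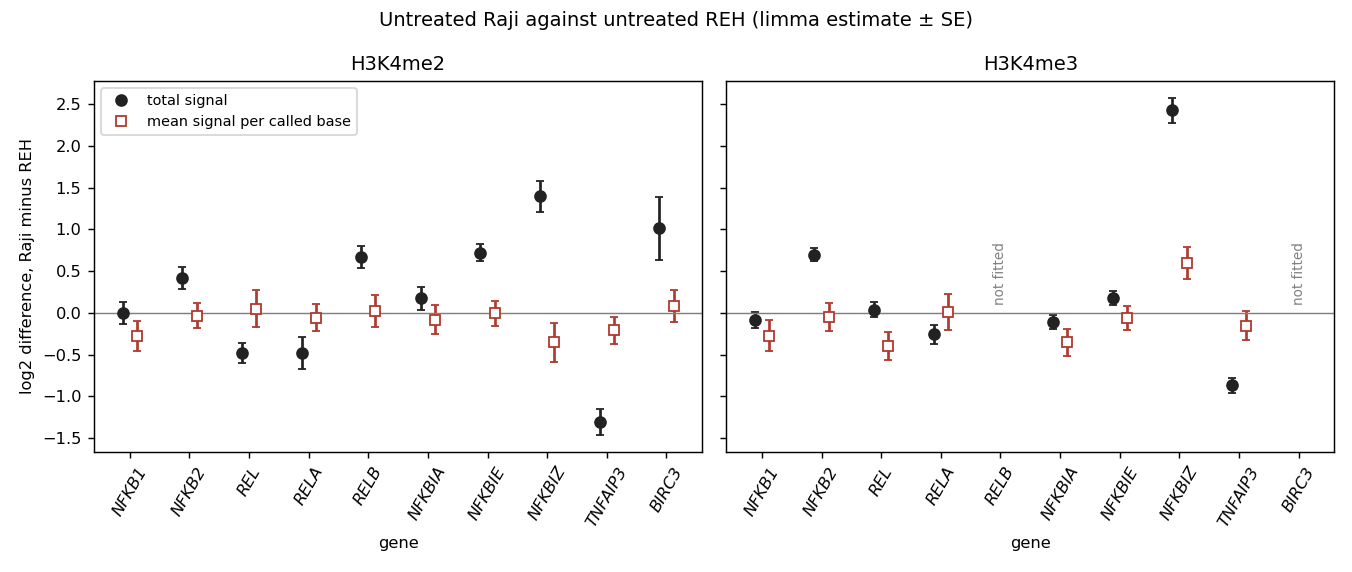
Log2 difference, untreated Raji minus untreated REH, for each gene and mark, with bars of 1 SE from limma; black circles are the summed signal of the window and red squares the mean signal per called base. In the summed signal NFKBIZ is highest in both marks, at 1.39 and 2.43, and TNFAIP3 lowest, at -1.31 and -0.87, while per called base most genes lie near 0.

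NALM6 was compared with each of the other lines in the same way. Against Raji, its H3K4me2 differed at 2 of 9 members (20.6% of windows), RELB at 0.93 (adjusted p = 0.028) and NFKB2 at 0.66 (adjusted p = 0.042), both higher in Raji. In the 6 fits that left out 1 library, RELB passed in 2 and NFKB2 in 1, and without flanks RELB gave 0.91 (adjusted p = 0.17). H3K4me3 differed at 0 of 7 in the limma fit (18.3% of windows), with 2 members at an unadjusted p under 0.05 (32.6% of windows). Against REH, NALM6 was lower in TNFAIP3 for H3K4me2, at -1.67 (adjusted p = 0.0025), the only one of 9 members (10.6% of windows). For H3K4me3, 2 of 7 members differed (6.81% of windows), NFKBIZ higher in NALM6 at 1.54 (adjusted p = 0.027) and TNFAIP3 lower at -1.26 (adjusted p = 0.043). Of the 6 fits that left out 1 library, NFKBIZ passed in 2, those without NALM6 replicate 1 or 3, and TNFAIP3 in 1, that without NALM6 replicate 1. Neither passed with the replicate block (adjusted p = 0.068 and 0.086) or without centring (adjusted p = 0.90 and 0.67).

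The first NALM6 replicate, with its other scaling and shorter peaks, weighed on these counts. Its untreated peaks covered 6.16 Mb for H3K4me2 and 6.21 Mb for H3K4me3, against 24.2 to 34.0 Mb in replicates 2 and 3. Which of these traits mattered was not tested. Without that replicate, 4 members differed from Raji in H3K4me2, namely NFKB2 at 0.61, RELB at 0.91, NFKBIE at 0.62 and NFKBIZ at 1.28. In H3K4me3 the members that differed from Raji were then 3, NFKB2 at 1.48, NFKBIE at 0.35 and NFKBIZ at 1.22. Those that differed from REH were 4, NFKB2 at -0.78, NFKBIA at -0.24, NFKBIZ at 1.21 and TNFAIP3 at -0.94. Calls over all windows rose as well, from 1097 to 2791 for H3K4me2 against Raji. For H3K4me3 they rose from 1237 to 4363 against Raji and from 452 to 3149 against REH. The counts of members thus went with a rise over the genome.

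Bryostatin left no member past the threshold in any line or mark. Each line was fitted on its own, and 0 of 10, 0 of 8 and 0 of 10 members passed for H3K4me2 in Raji, NALM6 and REH, against 0%, 0% and 0.103% of all windows. For H3K4me3 the counts were 0 of 10, 0 of 7 and 0 of 8, against 0%, 0% and 0.394%. Blocking on replicate number, which by correlation pairs the libraries for H3K4me3 in Raji and H3K4me2 in REH, let 64 of 10560 windows pass in the first and 21 of 10655 in the second, in place of 0 and 11, with 0 members in either. The correlations also pair the NALM6 libraries in both marks, where the block let 0 windows and 0 members pass. At an unadjusted p under 0.05 there were 1, 1 and 0 members for H3K4me2 and 1, 0 and 3 for H3K4me3 in the same order of lines, where 5.15%, 1.37% and 5.72% of windows were for H3K4me2 and 4.81%, 0.214% and 7.75% for H3K4me3. In the merged peak region over each start alone, limma again called 0 members, against 1.45% of all merged regions of the genome for H3K4me2 in REH, 0.155% for H3K4me3 in Raji, 1.67% for H3K4me3 in REH and 0% in the other fits. At an unadjusted p under 0.05 the start regions of 1, 0 and 0 members were found for H3K4me2 in Raji, NALM6 and REH, where 6.72%, 1.36% and 9.88% of all merged regions were, and of 1, 0 and 1 members for H3K4me3, where 5.65%, 0.182% and 10.5% were. With the block the merged regions called rose from 157 to 305 for H3K4me2 in REH, from 14 to 132 for H3K4me3 in Raji and from 121 to 202 for H3K4me3 in REH, again with 0 members. H3K27me3 was fitted in REH alone, because its peak numbers ranged too widely in Raji and NALM6. There NFKBIE, the only member with a peak in every REH library, gave 0.56 with a 95% interval of -1.34 to 2.47. That signal was the edge of the upstream domain inside the flank, over 38 to 1618 bp untreated and 658 to 848 bp with bryostatin. Of all REH H3K27me3 windows tested 0% were called and 2.21% had an unadjusted p under 0.05.

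**Figure D5:**
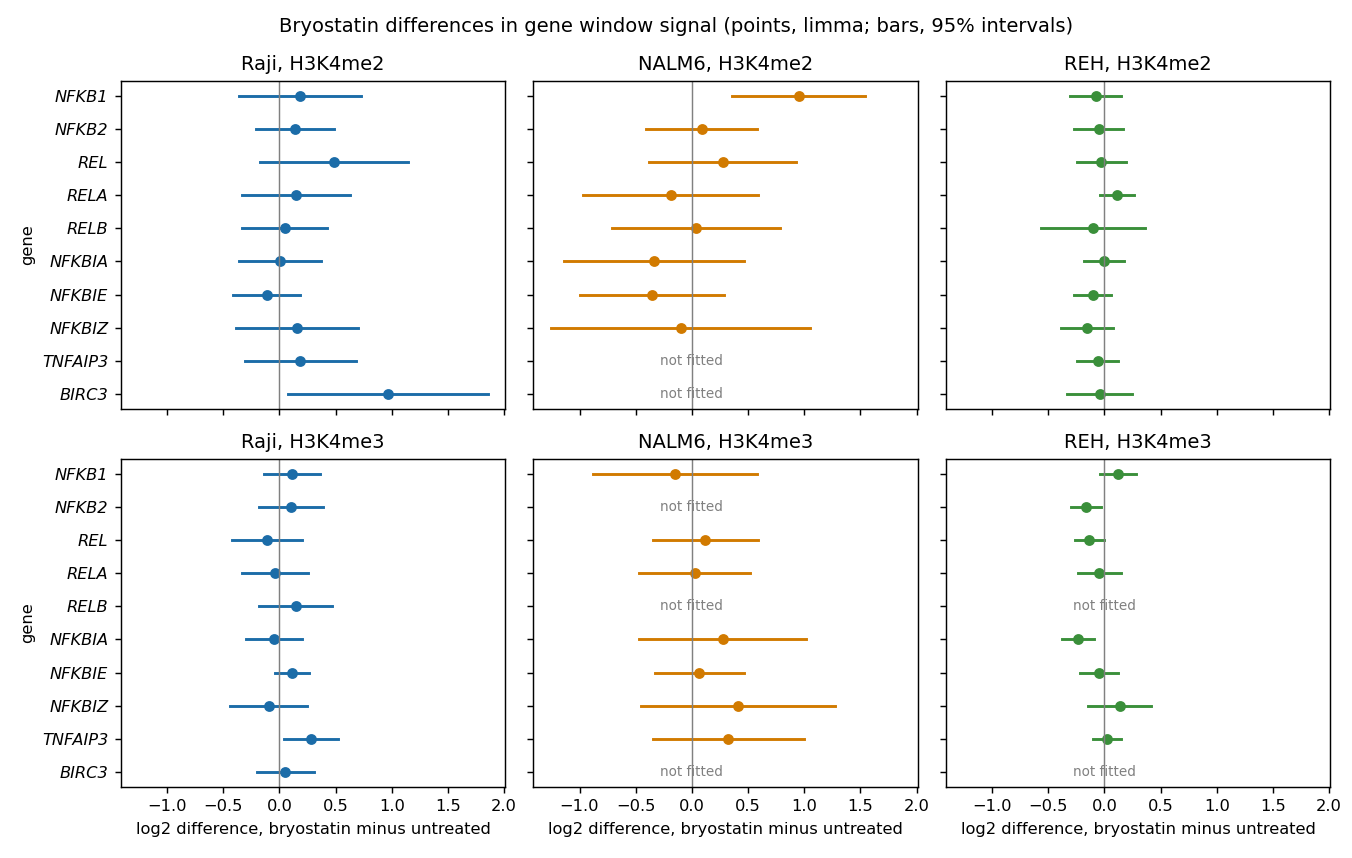
Log2 difference of the window signal, bryostatin minus untreated, for each gene that had a peak in all 6 libraries, by mark and line, with 95% intervals from limma and "not fitted" for genes without a peak in some library. The median half-width is 0.15 in REH H3K4me3 and 0.70 in NALM6 H3K4me2, and none of the points passed an adjusted p of 0.05.

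The precision of the window fits without the replicate block differed by line. In NALM6 these fits include replicate 1, which has another scaling and shorter peaks, in both treatments. The median half-width of the members' 95% intervals on the log2 scale was 0.49, 0.70 and 0.22 for H3K4me2 in Raji, NALM6 and REH, and 0.27, 0.67 and 0.15 for H3K4me3. The median difference over the members was 0.15, -0.03 and -0.05 for H3K4me2 and 0.08, 0.12 and -0.05 for H3K4me3, where the medians of all windows lay between -0.03 and 0.01. The members' own differences ran from -0.11 to 0.97, from -0.35 to 0.95 and from -0.15 to 0.11 for H3K4me2, and from -0.11 to 0.28, from -0.15 to 0.41 and from -0.24 to 0.14 for H3K4me3. In NALM6 the intervals reached from -1.26 to 1.54 for H3K4me2 and from -0.88 to 1.27 for H3K4me3, while in REH no interval of either mark reached beyond -0.57 or 0.42.

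The member nearest to the threshold was NFKBIA in REH. Its H3K4me3 window level was 1.24, 1.14 and 1.28 untreated and 1.07, 1.01 and 1.02 with bryostatin, without overlap. The difference was -0.24 (SE 0.06, 95% interval -0.38 to -0.10, unadjusted p = 0.0045, adjusted p = 0.25 in limma), and with replicate number as a block at the start region the adjusted p was 0.066. In the same line and mark NFKB2 was 0.957, 0.981 and 0.946 untreated and 0.897, 0.845 and 0.837 treated, and REL was 1.08, 1.10 and 1.17 untreated and 1.04, 1.01 and 0.998 treated. These 3 of 8 members did not overlap between treatments, where 14.6% of all windows did not, and the differences were -0.16 for NFKB2 (adjusted p = 0.48) and -0.13 for REL.

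NFKB1 in NALM6 had the largest separation for H3K4me2, with levels of 0.426, 0.613 and 0.503 untreated and 1.14, 0.895 and 0.925 with bryostatin. Its difference was 0.95 (SE 0.26, unadjusted p = 0.0062, adjusted p = 0.9999 in limma), and it was the 1 of 8 members without overlap, where 10.9% of windows had none. An H3K4me2 region near the end of NFKB1, chr4:102612371-102617040, entered this sum in bryostatin replicates 2 and 3, over 4630 and 2920 bp, and in 0 untreated libraries. At the NFKB1 start region alone the difference was 0.64 (unadjusted p = 0.069 in limma). Over all settings run, the window difference ranged from -0.0020 to 1.08. The first level given for each treatment is replicate 1, which has another scaling and shorter peaks.

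In Raji, BIRC3 gave the largest difference, 0.97 for H3K4me2 (SE 0.39, adjusted p = 0.81), but its groups overlapped. Without untreated replicate 2, the lowest library, the difference was 0.49. That library was also the shallowest of Raji for H3K4me2, at 6.70 M reads and 10464 peaks. The part of depth in this difference was not tested. TNFAIP3 in Raji gave 0.28 for H3K4me3 (adjusted p = 0.97). The groups did not overlap in 0 of 10 members for H3K4me2 and 1 of 10 for H3K4me3 in Raji, 0 of 7 for H3K4me3 in NALM6 and 1 of 10 for H3K4me2 in REH, against 9.85%, 11.6%, 4.84% and 11.5% of windows. The Raji gene was NFKBIE, at 0.11, and the REH gene was RELA, also at 0.11. Members with a library at 0 were compared by an exact two-sided permutation test, whose smallest p with 3 against 3 libraries is 0.1, and gave p = 1 for TNFAIP3 H3K4me2, NFKB2 H3K4me3 and RELB H3K4me3 in NALM6 and p = 0.8 for RELB H3K4me3 in REH.

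Whether the lines differed in their response was tested by the interaction of line and treatment. In the limma fits 0 members passed for any of the 3 pairs of lines in either mark, against 0% of windows in each. At an unadjusted p under 0.05 there was 1 of 8 members for H3K4me2 between NALM6 and REH (2.18% of windows), and 0 for H3K4me2 between Raji and REH (5.03%) and between Raji and NALM6 (1.13%), and 0 for H3K4me3 in the same pairs (1.01%, 3.41% and 1.13%). For H3K4me2, NFKB1 moved by 1.03 more in NALM6 than in REH (unadjusted p = 0.0014, adjusted p = 0.998), and BIRC3 by 1.01 more in Raji than in REH (unadjusted p = 0.050, adjusted p = 0.92). For H3K4me3 the lowest unadjusted p was 0.054, for TNFAIP3, by 0.26 more in Raji than in REH.

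Other genes of the pathway were read in 3 lists. They were 20 genes of the kinases and adaptors that release NF-kB, 10 further inhibitors, and 20 target genes. None passed in any bryostatin comparison of H3K4me2 or H3K4me3. Between untreated Raji and REH, H3K4me2 of kinases and adaptors was higher in Raji at 7 and lower at 2 of 15 tested, of further inhibitors at 5 and 2 of 9, and of target genes at 4 and 1 of 11, beside the 28% and 18% of all windows. For H3K4me3 the counts were 3 and 4 of 12, 3 and 3 of 9, and 2 and 2 of 8, beside 21% and 25.5%. TNIP1, a ubiquitin-binding partner of TNFAIP3 named after its values were seen, was higher in Raji by 2.41 for H3K4me2 (adjusted p = 7.5e-07) and 1.55 for H3K4me3 (adjusted p = 3.6e-06).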

How the data were processed

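Peaks of 54 Cut&Tag libraries were used, and 18 IgG samples were not used here. Per the labels and the study's methods, reads were trimmed with Trim Galore and aligned with Bowtie2 to hg38, and SEACR called stringent peaks in each library without pooling. The deposited peak lists hold the total signal of each peak, a coverage scaled by the authors to RPKM in 10 bp bins in 48 libraries. In replicate 1 of NALM6 the 6 libraries had another scaling.

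Peak signal was summed over gene windows (gene with 3 kb flanks) and over regions merged from the overlapping peaks of a line's 6 libraries, of which the one at a gene's principal start is its start region, in proportion to the overlap, put on the log2 scale and centred on windows called in all 18 libraries of the mark (regions, on those called in all 6). Features with a peak in every library of a fit were tested with limma 3.58.1 in R 4.3.3 (eBayes with a trend, two-sided, Benjamini-Hochberg adjustment over all features, threshold 0.05). A signal sums peak length and height, so a longer called stretch raises it. The scripts were tested on simulated data in which 200 features were changed between treatments. Of windows changed by 1 on the log2 scale, 69%, 18% and 91% were recovered for H3K4me2 in Raji, NALM6 and REH. For H3K4me3 the shares were 75%, 39% and 93%, so most changes of that size were missed in NALM6.

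Replicate numbers were taken to pair libraries where all same-number correlations of the deviations exceeded 0.1. This held for H3K4me2 and H3K4me3 in NALM6, H3K4me2 in REH, H3K4me3 in Raji, H3K4me3 start regions in REH, and untreated NALM6 with REH for H3K4me2. The labels do not say what a number marks. Alternatives covered the signal measure, centring, filters, block, flanks and left-out libraries. The genes and lists were chosen with earlier results of these data known. Members were described by role, and other genes were named by the rule of the lists or after their values were seen.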

Additional observations from a re-analysis of the deposited data

How the results depend on the processing

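No bryostatin or interaction result for the 10 genes passed the threshold under any setting run, the lowest adjusted p being 0.066 (NFKBIA, H3K4me3 start region in REH, replicate block). Of 917 alternative values for bryostatin in windows, 117 changed sign without passing. With the replicate block the members called between untreated lines were 7 for H3K4me2 Raji with REH (6 without, BIRC3 added), 1 for Raji with NALM6 (2 without), and for H3K4me3 1 for Raji with NALM6 (0 without) and 0 for NALM6 with REH (2 without). Replicate numbers did not pair those libraries by the rule.

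As signal per called base the members called fell to 0 in all comparisons of H3K4me2, to 1 for H3K4me3 of Raji with REH and to 0 of NALM6 with REH. The sign then turned for NFKB2 (-0.034), REL (0.052), NFKBIE (-0.0042) and NFKBIZ (-0.35) in H3K4me2 of Raji against REH, for RELB against NALM6 (-0.13), and for NFKB2 in H3K4me3 (-0.047). By maximum signal, NFKB2 (-0.45, adjusted p = 0.044) and NFKBIE (-0.40, adjusted p = 0.035) were lower in Raji than in REH for H3K4me2. The cause was not tested, but this measure leaves out peak length by construction.

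For H3K4me2 of Raji with NALM6, members called were 0 by maximum signal, without centring or with 1 kb flanks, 1 among the windows above the median signal, with equal peak numbers, with whole peak signal or centred on the fit's own windows, 4 without NALM6 replicate 1, and 0 to 4 leaving out 1 library. For H3K4me2 of NALM6 with REH they were 0 without centring, 2 with missing values set to the lowest, and 1 in every fit leaving out 1 library. For H3K4me3 of Raji with REH they were 3 to 4 leaving out 1 library, and for H3K4me2 5 to 7. For H3K4me3 of Raji with NALM6 they were 1 with missing values set to the lowest, with 1 kb flanks or with none, 3 without NALM6 replicate 1 and 0 to 3 leaving out 1 library. For H3K4me3 of NALM6 with REH they were 0 by maximum signal, without centring, among the windows above the median signal or with equal peak numbers, 1 with 1 kb flanks, 4 without NALM6 replicate 1 and 0 to 4 leaving out 1 library. H3K27me3 start pairs were 17, and 7 without untreated Raji replicate 2. The no-flank, NALM6 start region and H3K27me3 settings were chosen after seeing the data. The higher counts of members without NALM6 replicate 1 went with a rise over all windows, given above.

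Without centring the median of all windows moved from 0.11 to -0.28 for H3K4me2 of Raji against REH, and from -0.03 to -0.19 for H3K4me3, whose windows higher and lower in Raji went from 1789 and 2171 to 250 and 986.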

Other observations

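Several genes of the pathway lists, named here after their values were seen, separated untreated Raji from REH. Of all windows, 46% differed between these lines for H3K4me2 and 46.6% for H3K4me3. TRAF1, an adaptor of TNF receptors, was higher in Raji by 2.20 on the log2 scale for H3K4me2. MYD88, the adaptor of Toll-like receptors, was higher by 1.27 for H3K4me2 and 0.96 for H3K4me3, and FAS, a death receptor, by 1.54 and 1.59. TNFRSF1A, the main TNF receptor, was lower in Raji at -2.76 for H3K4me2, and IER3 was lower at -1.86 for H3K4me3. IKBKG, the regulatory subunit of the kinase that releases NF-kB, had the lowest p of the lists under bryostatin, at 0.75 for H3K4me2 in Raji (unadjusted p = 0.00030, adjusted p = 0.48 in limma).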
